A study of Mus musculus with 81 samples.

Results

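The endothelial and leukocyte adhesion genes described here are 10 genes of the vessel wall, chosen by name for their known roles and not by any threshold. Cldn5, Pecam1, Cdh5, Flt1 and Kdr mark the endothelial cells that line vessels, Plvap marks endothelium with fenestrae or leaky walls, and Icam1, Vcam1, Selp and Sele encode the adhesion molecules by which leukocytes enter tissue. All 10 were found in each gene table, which held 55536 genes for the depletion experiment, 20801 for the training experiment and 24500 for intact mice.

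Endothelium of brain vessels forms the blood-brain barrier, in which claudin-5 seals the tight junctions, VE-cadherin and PECAM-1 join neighbouring cells, and the VEGF receptors FLT1 and KDR govern vessel growth and survival. At rest this endothelium carries little adhesion protein. Inflammatory cytokines induce the selectins, on which leukocytes roll, and ICAM-1 and VCAM-1, to which leukocyte integrins bind before the cells cross the wall, and ICAM-1 and VCAM-1 can also be made by glia and leukocytes.

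The study asked how the histone variants mH2A1 (gene H2afy) and mH2A2 (gene H2afy2) shape gene expression in hippocampal area CA1 at rest and after learning. All mice were male C57BL/6J of 9 to 12 weeks. The series holds 81 samples, 26 of RNA-seq and 55 of ChIP-seq with inputs, and 30 of the ChIP samples have a list of domains. In the depletion experiment, dorsal CA1 received AAV-DJ that drove an shRNA from the U6 promoter and GFP from the CMV promoter, and tissue was taken 2 weeks later. Its 3 groups of 3 mice carried shH2afy, shH2afy2 or the scrambled shScr, so that controls also carried an AAV, an shRNA and GFP. In the training experiment, mice with shH2afy or shScr were trained by contextual fear conditioning or stayed in the home cage as untrained mice, with 3 mice in each of the 4 groups and RNA taken 1 h after training. Intact mice received no virus, and 2 trained mice (1 h) and 3 untrained mice were sequenced. The tissue was bulk CA1 (the GFP-positive area after virus), the U6 promoter is active in every infected cell type, and the methods give different titres for the 2 knockdown viruses.

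Reads assigned to genes ranged between 9.95 and 18.75 M per mouse in the depletion experiment, between 81.35 and 92.2 M in the training experiment and between 48.8 and 58.7 M in intact mice. Levels are given as CPM (counts scaled to the library total, with TMM factors within an experiment), and experiments were not set against each other because the training experiment was counted over introns as well. The target gene H2afy measured 43.1, 44.9 and 39.2 CPM in shH2afy mice of the depletion experiment, against 60.8, 58.2 and 52.8 CPM in shScr mice. The other target, H2afy2, measured 13.25, 8.06 and 7.58 CPM in shH2afy2 mice, against 18.3, 18.7 and 18.9 CPM in shScr mice. Both targets were thus lower in every library of their own knockdown. In the training experiment, whose counts include introns, H2afy was not lower under the label shH2afy. Its mean was 88.0 CPM in untrained mice labelled shH2afy against 80.6 CPM in untrained shScr mice. It was 94.2 CPM in trained mice labelled shH2afy against 84.2 CPM in trained shScr mice. These libraries are therefore called libraries labelled shH2afy below. Genes of CA1 pyramidal neurons were detected in all 26 libraries.

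Promoters of 6 of the 10 genes (Cldn5, Flt1, Kdr, Icam1, Selp and Sele) had an entry among the RefSeq promoters of build GRCm38.p6. Each covers 250 bases before and 50 bases after the start that this set gives. For Icam1 that start differs from the gene start used for domains below, chr9:21015985, which lies close to the end of the window. Vcam1, Pecam1, Cdh5 and Plvap had no entry. The promoters of the inducible genes Icam1, Sele and Selp are shown beside that of the barrier gene Cldn5, because the first 3 differed most between viruses. All 4 lie on the plus strand, at chr9:21015690-21015989 (Icam1), chr1:164047984-164048283 (Sele), chr1:164115014-164115313 (Selp) and chr16:18776597-18776896 (Cldn5). Capitals mark matches to 3 short motifs, each searched on both strands.
Icam1: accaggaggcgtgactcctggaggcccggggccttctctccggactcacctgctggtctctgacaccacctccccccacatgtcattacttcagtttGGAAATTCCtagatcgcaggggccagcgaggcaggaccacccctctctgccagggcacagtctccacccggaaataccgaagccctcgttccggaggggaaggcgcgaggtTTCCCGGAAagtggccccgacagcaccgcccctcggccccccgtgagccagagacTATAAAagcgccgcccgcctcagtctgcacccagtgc
Sele: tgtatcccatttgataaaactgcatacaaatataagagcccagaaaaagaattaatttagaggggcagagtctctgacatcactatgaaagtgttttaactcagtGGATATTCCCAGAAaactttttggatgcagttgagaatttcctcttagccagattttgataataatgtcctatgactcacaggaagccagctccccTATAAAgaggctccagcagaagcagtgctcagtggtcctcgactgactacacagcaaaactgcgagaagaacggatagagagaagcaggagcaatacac
Selp: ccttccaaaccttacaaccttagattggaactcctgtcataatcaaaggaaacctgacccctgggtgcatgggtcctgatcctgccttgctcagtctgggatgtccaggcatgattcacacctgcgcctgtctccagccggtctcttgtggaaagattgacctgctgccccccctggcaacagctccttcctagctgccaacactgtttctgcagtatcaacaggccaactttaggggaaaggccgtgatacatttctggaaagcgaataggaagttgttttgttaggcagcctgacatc
Cldn5: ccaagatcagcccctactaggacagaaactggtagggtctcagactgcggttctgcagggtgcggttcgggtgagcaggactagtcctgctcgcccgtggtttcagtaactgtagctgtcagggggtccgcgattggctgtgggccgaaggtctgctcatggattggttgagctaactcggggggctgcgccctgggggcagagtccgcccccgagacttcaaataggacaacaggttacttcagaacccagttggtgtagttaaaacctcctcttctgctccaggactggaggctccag

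The kB-like motif GGAANNTCC, the form bound by NF-kB, was held by 4.26% of 32851 promoters of this length, the GAS-like motif TTCNNNGAA, the form bound by STAT factors, by 8.3%, and the TATA-like motif TATAAA by 13.6%. In Icam1 the kB-like match GGAAATTCC began at base 98 of the 300 shown and reads as a match on both strands, the GAS-like match TTCCCGGAA at base 209 and TATAAA at base 264. In Sele the kB-like match GGATATTCC, on the other strand, began at base 106, overlapped the GAS-like match TTCCCAGAA at base 111, and was followed by TATAAA at base 202. The Selp, Cldn5 and Kdr windows held none of the 3 motifs, and Flt1 held TATAAA alone. The motifs were chosen with the expression results known, and a match describes letters, not binding.

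**Figure D1:**
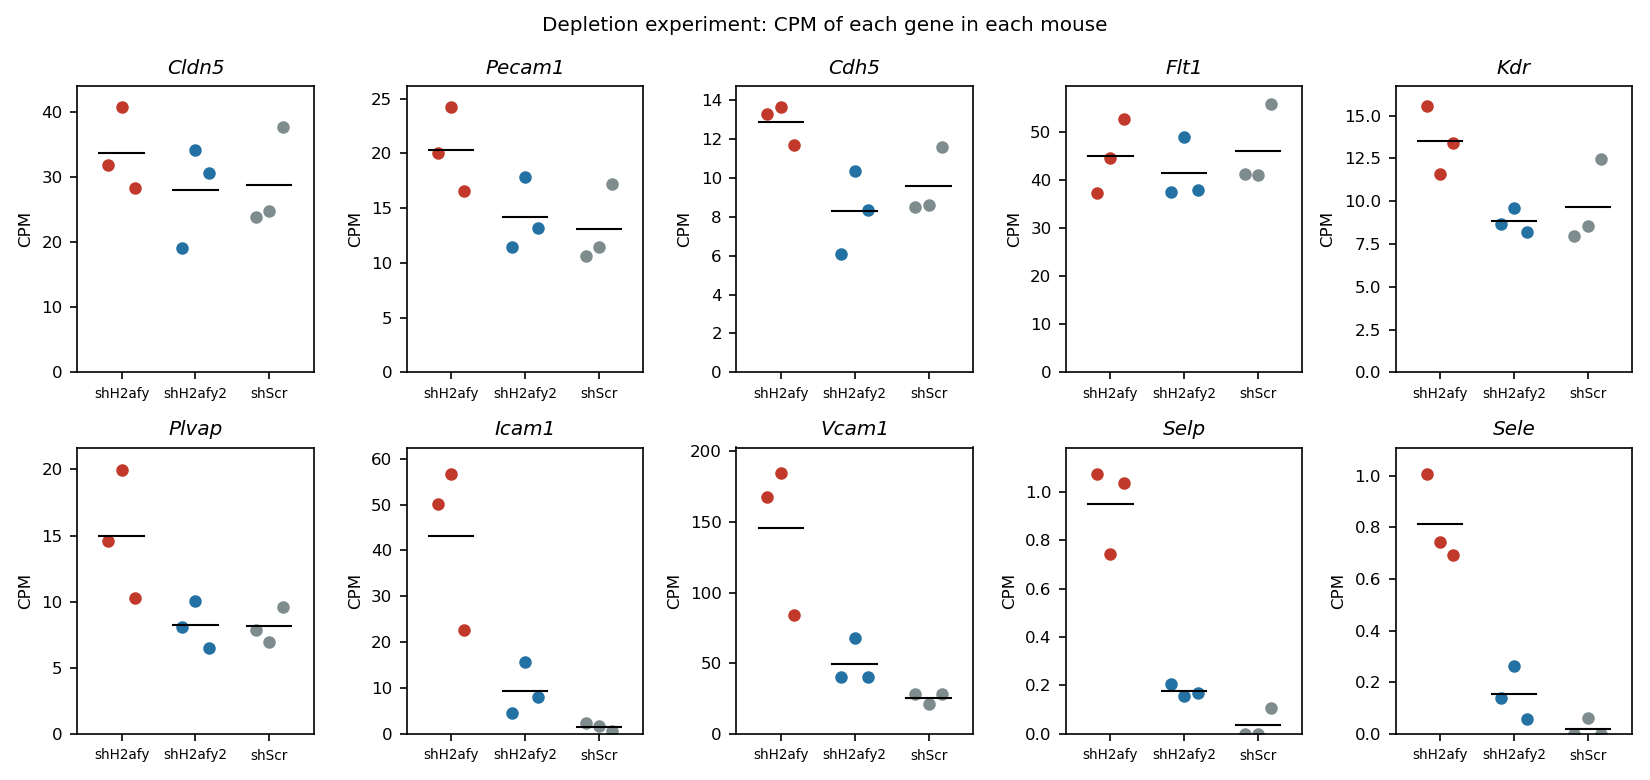
Levels in CPM (y axis, each panel with its own scale from 0) of the 10 genes in the 9 mice of the depletion experiment, with shH2afy on the left, shH2afy2 in the middle and shScr on the right, each point a mouse and each line the group mean (n = 3). Icam1 and Vcam1 lie apart in all 3 groups, with Icam1 between 22.6 and 56.7 CPM in shH2afy mice and below 2.36 CPM in shScr mice, while Flt1 and Cldn5 overlap between groups.

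The first comparison asked what mH2A1 knockdown did to vessel genes at rest. The adhesion genes were higher in shH2afy mice than in shScr mice and the barrier genes were not called at the threshold of the experiment (adjusted p under 0.01 and fold above 2). Icam1, the ligand of the integrins LFA-1 and Mac-1, measured 50.15, 56.7 and 22.6 CPM in shH2afy mice, against 2.35, 1.62 and 0.638 CPM in shScr mice. It was 28.0-fold higher, with a log2 fold change of 4.81 ± 0.49 (SE) and an adjusted p of 0.000548 (edgeR). In shScr replicate 3, with 6 reads, Icam1 fell below the filter on low counts. It thus passed that filter only with the shH2afy libraries, and its call carries that limit. Vcam1, the ligand of the integrin VLA-4, measured 168, 185 and 83.9 CPM in shH2afy mice, against 28.2, 20.8 and 28.0 CPM in shScr mice. Its log2 fold change was 2.57 ± 0.31 and its adjusted p 0.00102 (edgeR). For both genes every shH2afy mouse lay above every shScr mouse, and shH2afy replicate 3 was the lowest of its group.

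The selectins were rare transcripts. Selp, which encodes the P-selectin that endothelium and platelets store, gave 16, 13 and 15 reads in shH2afy mice, against 0, 0 and 1 read in shScr mice. Sele, which encodes the E-selectin that endothelium makes on cytokine signals, gave 15, 13 and 10 reads in shH2afy mice, against 0, 1 and 0 reads in shScr mice. Scaled to depth, the ratio of the groups was 43.8 for Selp (exact 95% counting interval 7.46 to 1768) and 37.8 for Sele (6.39 to 1532). edgeR called both higher (adjusted p 0.00358 for Selp and 0.00317 for Sele), but both passed the filter on low counts only through the shH2afy libraries, so their calls are no added support. Leaving out any 1 of 5 libraries, all but shH2afy replicate 3, took both calls away, with adjusted p between 0.0104 and 0.0231 (edgeR). The 6 platelet genes summed to 4.28 to 4.76 CPM in shH2afy mice, against 2.84 to 3.62 CPM in shScr mice, with up to 2 and 1 of them at 0, and their part in the Selp counts was not tested.

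Plvap, the protein of the fenestral diaphragm, measured 14.6, 19.95 and 10.3 CPM in shH2afy mice, against 7.89, 6.98 and 9.57 CPM in shScr mice. The groups lay apart, but the log2 fold change of 0.95 ± 0.26 missed the threshold (adjusted p 0.0284, edgeR), which it passed without shH2afy replicate 3 (adjusted p 0.0063). Cdh5, the VE-cadherin of adherens junctions, measured 13.3, 13.6 and 11.7 CPM in shH2afy mice, against 8.51, 8.60 and 11.6 CPM in shScr mice. Its groups just missed touching, with a log2 fold change of 0.50 ± 0.18 and an adjusted p of 0.0636 (edgeR). The remaining 4 vessel genes overlapped between the groups.

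Pecam1, the junction protein PECAM-1, measured 20.0, 24.2 and 16.6 CPM in shH2afy mice, against 10.65, 11.5 and 17.2 CPM in shScr mice (log2 fold change 0.71 ± 0.23, adjusted p 0.0515, edgeR). Kdr, the main signalling receptor for VEGF-A, measured 15.55, 11.6 and 13.4 CPM in shH2afy mice, against 7.96, 8.53 and 12.4 CPM in shScr mice (0.56 ± 0.22, adjusted p 0.0851, edgeR). For both, shScr replicate 3 was the highest of its group and lay among the shH2afy mice. Cldn5 measured 31.8, 40.8 and 28.3 CPM in shH2afy mice, against 23.9, 24.85 and 37.65 CPM in shScr mice, and Flt1, a VEGF receptor that also acts as a decoy, measured 37.4, 44.65 and 52.7 CPM, against 41.4, 41.1 and 55.8 CPM. Their log2 fold changes were 0.30 ± 0.22 and 0.03 ± 0.17, neither past the threshold.

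All 10 genes were tested, and 4 were called, all higher in shH2afy mice, where 11.7% of all 16179 genes tested were called and 10.5% were called higher. All 10 log2 fold changes were above 0, with a median of 0.83 against 0.0072 over all genes tested, and 6 of the 10 had groups that did not overlap, against 23.9% of all genes with every shH2afy mouse higher. Selp, Sele and Icam1 are among the 4 and among the 6, and they passed the filter only with the shH2afy libraries. Both counts carry that limit, and Vcam1 is the call without it. DESeq2 called the same 4 genes.

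Related lists are set beside the 10.5% of all genes tested that were called higher in shH2afy mice. The calls in the endothelial, tight junction and VEGF lists lay near that share. Of 24 other endothelial genes, 3 were called higher and 0 lower (median log2 fold change 0.28), namely Vwf, the von Willebrand factor stored with P-selectin (2.30), Mfsd2a, a lipid transporter of the barrier (1.30), and Eng, a TGF-beta co-receptor (1.06). Of 10 tight junction genes, 1 was called, F11r (2.47), which encodes the junction protein JAM-A, and of 11 VEGF and angiopoietin genes 1, Angpt1 (1.33), the ligand of the receptor TIE2. The summed level of the 24 endothelial genes was 481 to 555 CPM in shH2afy mice, against 404 to 475 CPM in shScr mice, with none of the 24 at 0 in any library. Fewer cells of a type and less RNA per cell cannot be told apart in bulk tissue such as this.

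Genes listed for the leukocyte side were also higher, but which cells of the bulk tissue made them was not tested. In shScr mice the ligand list summed to 117 to 152 CPM, where leukocytes from blood summed to 3.74 to 26.4 CPM. Of 10 tested genes among 11 leukocyte ligands of these adhesion molecules, 9 were called higher (median 4.25), among them Itgam (3.41) and Itgb2 (4.25), the chains of Mac-1, and Cd44 (4.73), a ligand of E-selectin. Only 8 of the 11 passed the filter in shH2afy2 against shScr mice. Some of the 10 thus passed only with the shH2afy libraries, so the count of that list is no support. Of 14 NF-kB pathway and induced genes, 12 were called higher (median 2.72), among them Nfkb1 (1.74), a subunit of NF-kB, and Lcn2, with 2269, 2807 and 1355 reads in shH2afy mice, against 1, 2 and 1 in shScr mice. Lcn2, Tnf, Il1b, Ccl2 and Cxcl1 of the NF-kB list had at most 6 reads in any shScr mouse and passed the filter through the shH2afy libraries alone, so the count of that list is no support. Of 15 genes of leukocytes from blood, 7 passed the filter and 4 were called higher, including the pan-leukocyte gene Ptprc (4.85) and Ccr2 (5.90), a receptor of monocytes. The 7 passed mostly through the shH2afy libraries, so their count is no support.

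The summed levels of other cell types also differed between these groups. Leukocytes from blood summed to 182, 266 and 81.3 CPM in shH2afy mice, against 5.05, 3.74 and 26.4 CPM in shScr mice, with 1 to 2 of the 15 genes at 0 in shH2afy mice and 4 to 5 in shScr mice. The T cell gene Cd3d was at 0 in every shScr mouse, the neutrophil gene Ly6g was at 0 in all 9 libraries, and Cd4 alone made up 18.8 CPM of the 26.4 CPM in shScr replicate 3. Microglia (6 of 6 genes called higher, median 2.35) summed to 1716, 1772 and 1204 CPM in shH2afy mice, against 397, 266 and 317 CPM in shScr mice. In both lists shH2afy replicate 3 was the lowest of its group, as it was for Icam1 and Vcam1. Genes of CA1 pyramidal neurons summed to 517 to 698 CPM in shH2afy mice, against 1062 to 2331 CPM in shScr mice, and 2 of 6 were called lower. The 6 astrocyte genes summed to 6774 to 6963 CPM in shH2afy mice, against 3676 to 4527 CPM in shScr mice. The leukocyte ligands (469 to 837 CPM against 117 to 152 CPM) and the NF-kB list (280 to 543 CPM against 84.55 to 104 CPM) lay apart as well. The part of these cells in the levels of Icam1 and Vcam1 was not tested.

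**Figure D2:**
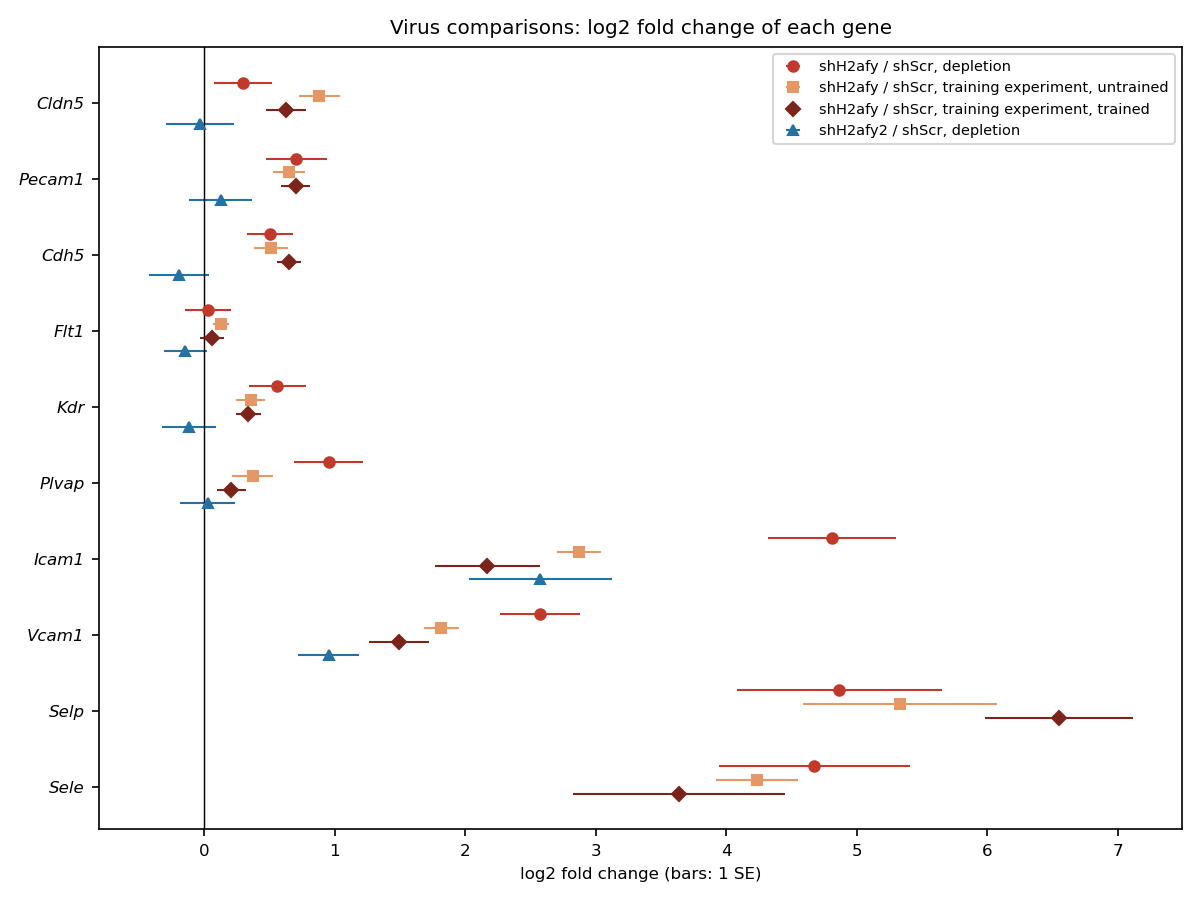
Log2 fold change (x axis, bars 1 SE, edgeR) of each of the 10 genes (y axis) in 4 comparisons with shScr. Circles show shH2afy in the depletion experiment, squares and diamonds the untrained and trained libraries labelled shH2afy, and triangles shH2afy2, whose selectins were not tested. Icam1, Vcam1, Selp and Sele lie between 1.49 and 6.55 wherever shH2afy is named, while Flt1 lies between 0.03 and 0.13.

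The second comparison asked the same of mH2A2, with the same 3 shScr mice as reference. Icam1 measured 4.58, 15.6 and 8.14 CPM in shH2afy2 mice and Vcam1 40.4, 67.6 and 40.1 CPM, against the shScr values given above. Both genes were higher in every shH2afy2 mouse than in every shScr mouse, and shH2afy2 replicate 2 was the highest of its group for both. The log2 fold changes were 2.58 ± 0.55 for Icam1 and 0.95 ± 0.23 for Vcam1, with adjusted p of 0.0835 and 0.0992 (edgeR). The other 6 tested genes had log2 fold changes between -0.19 and 0.13, and all 6 overlapped between the groups.

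Of the 8 genes that passed the filter, 0 were called, where 0% of 15609 genes were called by edgeR, although 3238 genes (20.7%) had an unadjusted p under 0.05. Icam1 and Vcam1 were the 2 members with groups apart, against 13.3% of all genes with every shH2afy2 mouse higher. Icam1 passed the filter only with the shH2afy2 libraries, since it fell below it in shScr replicate 3. DESeq2 called Icam1 (adjusted p 0.00015) among 127 genes, and edgeR without the filter on low counts called Icam1 among 327 genes. Selp gave 3 reads in each shH2afy2 mouse, and Sele 2, 5 and 1. The ratios to shScr were 7.35 for Selp (exact 95% counting interval 1.02 to 322) and 6.54 for Sele (0.876 to 290), each resting on 1 read in shScr mice.

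In the lists, 0 genes were called, with medians of 0.14 for other endothelial genes, 0.76 for leukocyte ligands (8 of 11 tested) and 0.54 for NF-kB pathway and induced genes (10 of 14 tested), against -0.0096 over all genes. Leukocytes from blood summed to 8.53, 45.9 and 6.44 CPM in shH2afy2 replicates 1 to 3 and microglia to 360, 610 and 369 CPM. In both, replicate 2 was the highest, as it was for Icam1 and Vcam1, and without it the log2 fold changes were 2.00 for Icam1 and 0.66 for Vcam1. The part of these cells in the result was not tested.

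The 2 knockdowns were then set against each other. The order of levels was shH2afy above shH2afy2 above shScr for Icam1, Vcam1, Selp and Sele in the group means, and for Icam1 and Vcam1 no mouse of one group overlapped with another. Between shH2afy and shH2afy2 mice, Selp was called (log2 fold change 2.37 ± 0.37, adjusted p 0.00407, edgeR), with 44 reads against 9, a ratio of 5.95 (exact 95% counting interval 2.87 to 13.9). Both selectins passed the filter through the shH2afy libraries alone, since Selp had 3 reads in each shH2afy2 mouse, so this call is no added support. Sele (2.33 ± 0.50, adjusted p 0.0114), Icam1 (2.18 ± 0.49, 0.0129) and Vcam1 (1.56 ± 0.33, 0.0109) missed the threshold of 0.01 in edgeR. The 6 vessel genes had log2 fold changes between 0.12 and 0.87 and none was called. Of all 16294 genes 9.56% were called and 7.96% were called higher, against 1 of the 10 members. For 7 members (all but Cldn5, Pecam1 and Flt1) every shH2afy mouse lay above every shH2afy2 mouse, as for 25.4% of all genes.

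This count moved with the settings. DESeq2 called 3 members, edgeR without the filter 4, and a fit of all 9 libraries 4. Leaving out shH2afy replicate 1 or 2, or shH2afy2 replicate 1 or 3, left 0 called, and leaving out shH2afy replicate 3 or shH2afy2 replicate 2 left 3 and 2.

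**Figure D3:**
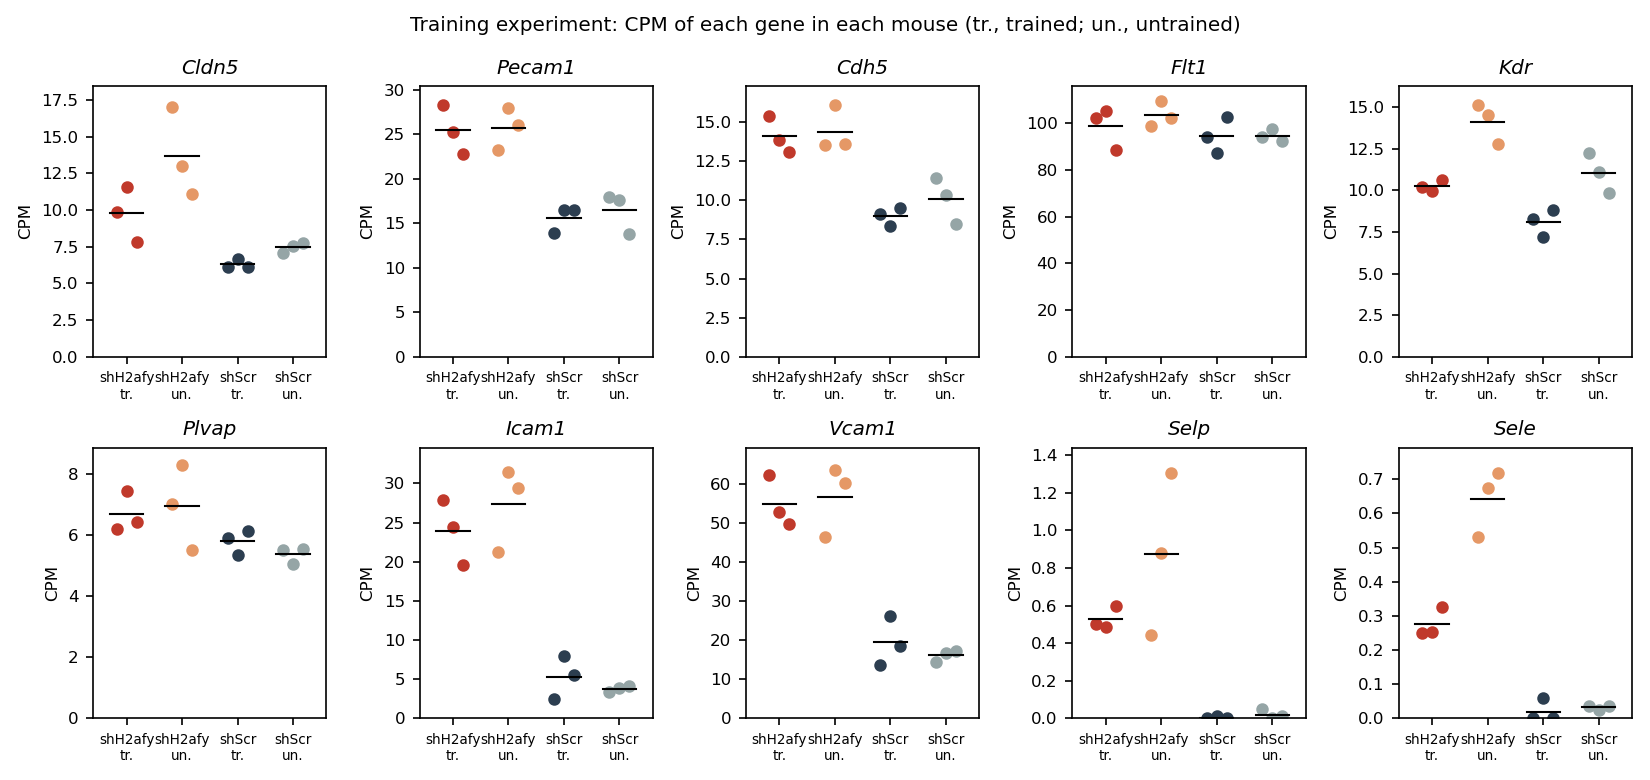
Levels in CPM (y axis, each panel with its own scale from 0) of the 10 genes in the 12 mice of the training experiment, from left to right trained and untrained mice labelled shH2afy, then trained and untrained shScr mice, each point a mouse and each line the group mean (n = 3). Icam1, Vcam1 and both selectins are higher on the left of each panel, and Kdr is lower in trained than in untrained mice within each virus.

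The training experiment repeated the comparison of viruses in other mice, with and without training. In untrained mice, Icam1 measured 21.3, 31.5 and 29.5 CPM in libraries labelled shH2afy, against 3.30, 3.86 and 4.10 CPM in shScr libraries. Vcam1 measured 46.5, 63.6 and 60.35 CPM in libraries labelled shH2afy, against 14.5, 16.7 and 17.3 CPM in shScr libraries. The groups did not overlap, and the log2 fold changes were 2.87 ± 0.17 for Icam1 (adjusted p 8.8e-05, edgeR) and 1.82 ± 0.13 for Vcam1 (0.000123).

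In trained mice the same genes kept apart. Icam1 measured 27.9, 24.4 and 19.5 CPM in libraries labelled shH2afy, against 2.44, 7.93 and 5.53 CPM in shScr libraries (log2 fold change 2.17 ± 0.40, adjusted p 0.00656, edgeR). Vcam1 measured 62.3, 52.8 and 49.8 CPM in libraries labelled shH2afy, against 13.8, 26.1 and 18.6 CPM in shScr libraries (1.49 ± 0.23, 0.0036). The trained shScr replicate 2 was the highest shScr library for both genes, and it also had the highest summed level of leukocytes from blood among the 6 shScr libraries (92.3 CPM, the others 25.05 to 45.9 CPM). Without it the log2 fold changes were 2.58 for Icam1 and 1.77 for Vcam1.

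The deeper libraries resolved the selectins better. Untrained libraries labelled shH2afy held 40, 81 and 129 reads of Selp, against 4, 0 and 1 in untrained shScr libraries, a ratio of 51.8 (exact 95% counting interval 21.9 to 161). For Sele they held 48, 62 and 71 reads, against 3, 2 and 3, a ratio of 23.5 (11.65 to 55.2). Every library labelled shH2afy lay above every shScr library for both genes. Trained libraries labelled shH2afy held 44, 46 and 55 reads of Selp, against 0, 1 and 0 in trained shScr libraries, a ratio of 149.5 (26.4 to 5945). For Sele they held 22, 24 and 30 reads, against 0, 5 and 0, a ratio of 15.7 (6.43 to 49.65). Both selectins were called in both states, although they passed the filter through the libraries labelled shH2afy alone, so their calls again add no support. Without trained shScr replicate 2 the trained shScr libraries held no read of either, and the fitted log2 fold change was 7.58 in place of 3.64 for Sele and 8.50 in place of 6.55 for Selp, values against 0 reads that depend on the prior count. Platelet genes, which mark another source of P-selectin, summed to 2.32 to 2.42 CPM in trained and 2.68 to 2.84 CPM in untrained libraries labelled shH2afy, against 0.915 to 1.35 CPM in trained and 1.28 to 1.62 CPM in untrained shScr libraries, with at most 1 of 6 genes at 0. The only one tested, Itga2b, was called higher in both states (log2 fold change 1.01 untrained and 1.09 trained), and the part of platelets in the Selp counts was not tested.

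The barrier genes, which had missed the threshold of the depletion experiment, passed the lower one used here (adjusted p under 0.05 and fold above 1.2) with small changes. Cldn5 measured 17.0, 13.0 and 11.1 CPM in untrained libraries labelled shH2afy, against 7.11, 7.53 and 7.76 CPM in untrained shScr libraries (log2 fold change 0.88 ± 0.16, adjusted p 0.00337, edgeR). Pecam1 measured 23.2, 27.9 and 26.0 CPM, against 18.0, 17.6 and 13.8 CPM (0.65 ± 0.12, 0.00449). Cdh5 measured 13.5, 16.1 and 13.6 CPM, against 11.45, 10.3 and 8.50 CPM (0.51 ± 0.13, 0.015). None of these 3 genes overlapped between the groups. Kdr was called with a log2 fold change of 0.35 ± 0.11 (adjusted p 0.0319, edgeR), but 4 of the 6 fits without 1 library lost it. Flt1 (0.13 ± 0.06, adjusted p 0.133) and Plvap (0.37 ± 0.16, 0.0891) were not called.

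In trained mice the pattern of calls had the same members. Cldn5 measured 9.90, 11.6 and 7.81 CPM in libraries labelled shH2afy, against 6.14, 6.66 and 6.14 CPM in shScr libraries (0.63 ± 0.15, adjusted p 0.0166, edgeR). Pecam1 measured 28.2, 25.3 and 22.8 CPM, against 13.9, 16.5 and 16.5 CPM (0.70 ± 0.11, 0.00367), and Cdh5 15.4, 13.8 and 13.1 CPM, against 9.12, 8.35 and 9.49 CPM (0.65 ± 0.09, 0.0027). These 3 genes again did not overlap between the groups. Kdr had a log2 fold change of 0.34 ± 0.10 (adjusted p 0.0282, edgeR) and lost its call in 5 of 6 fits without 1 library, while Cldn5 lost its call in 3 of 6, with adjusted p up to 0.0562. Flt1 (0.06 ± 0.09) and Plvap (0.21 ± 0.11) were not called.

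In each state 8 of 10 members were called, all 8 higher in libraries labelled shH2afy. Selp and Sele, which passed the filter through those libraries alone, are among the 8. They are also among the members that lay apart, so both counts carry that limit. The background was wide, since 43.7% of 15799 genes were called in untrained mice (25.2% higher) and 41.3% of 15703 genes in trained mice (22.8% higher). The members' median log2 fold change was 0.76 in untrained and 0.68 in trained mice, against 0.0014 and -0.010 over all genes, and 9 of 10 members lay apart in each state, against 30.5% and 30.1% of all genes with every library labelled shH2afy higher. The direction rests on the labels, since H2afy did not show the knockdown in these counts, which include introns. It was 1.09-fold higher in untrained (adjusted p 0.0868, edgeR) and 1.12-fold higher in trained libraries labelled shH2afy (0.0793), and called in neither.

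Of the 24 other endothelial genes, 14 were called higher in untrained mice (median 0.40) and 10 in trained mice (median 0.40). Of all genes, 25.2% and 22.8% were called higher. Among the endothelial genes called were Slc2a1, the glucose transporter of the barrier (0.67 and 0.75), Vwf (1.69 and 1.80) and Eng (0.63 and 0.78). The 24 genes summed to 521 to 631 CPM in trained and 570.5 to 633 CPM in untrained libraries labelled shH2afy, against 426 to 466 CPM in trained and 432.5 to 475 CPM in untrained shScr libraries. All 14 NF-kB pathway and induced genes were called higher in each state (medians 2.07 untrained and 1.57 trained), although Cxcl1 passed the filter through the libraries labelled shH2afy alone. Of 11 leukocyte ligands 9 were called higher in each state (medians 2.49 untrained and 2.16 trained) and 1 was called lower in trained mice (Itgad, -0.87). Leukocytes from blood summed to 175.5 to 219 CPM in trained and 131 to 213 CPM in untrained libraries labelled shH2afy, against 25.05 to 92.3 CPM and 32.2 to 45.9 CPM in trained and untrained shScr libraries, with 8 of 12 tested genes called higher in untrained and 5 of 12 in trained mice and Ly6g, at most at 0.0217 CPM in any library, at 0 in all 6 shScr libraries. All 6 microglial genes were called higher in each state, with sums of 721 to 1056 CPM in libraries labelled shH2afy and 219 to 332 CPM in shScr libraries. Of 6 genes of CA1 pyramidal neurons, 5 were called lower in untrained and 4 in trained mice, with sums of 699 to 868 CPM in trained and 538 to 862 CPM in untrained libraries labelled shH2afy, against 1617 to 2121 CPM in trained and 1666 to 2509 CPM in untrained shScr libraries. The 6 astrocyte genes had sums that overlapped between viruses, unlike in the depletion experiment. They summed to 4631 to 5216 CPM in trained and 4494 to 4784 CPM in untrained libraries labelled shH2afy. In shScr libraries the sums were 4499 to 4675 CPM in trained and 4052 to 4984 CPM in untrained mice. Of the 6, 4 were called higher and 1 lower in untrained mice, and 3 and 1 in trained mice. The part of these cells in the levels of the members was not tested.

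Training itself was compared within each virus. Kdr was lower in trained mice of both viruses, at 10.2, 9.94 and 10.6 CPM in trained libraries labelled shH2afy, against 15.1, 14.5 and 12.8 CPM in untrained ones. In shScr libraries Kdr measured 8.31, 7.23 and 8.80 CPM in trained mice, against 12.3, 11.1 and 9.84 CPM in untrained mice. The groups did not overlap in either virus, with log2 fold changes of -0.46 ± 0.10 in libraries labelled shH2afy and -0.46 ± 0.11 in shScr libraries. edgeR did not call Kdr in either (adjusted p 0.998 and 0.339), whereas DESeq2 did (adjusted p 0.0413 among 37 genes called, and 0.046 among 211).

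Cldn5 also lay lower in all trained shScr mice than in untrained ones (log2 fold change -0.25 ± 0.09, adjusted p 0.455, edgeR), at the levels given above. Among libraries labelled shH2afy, Cldn5 overlapped between trained and untrained mice (-0.49 ± 0.20, adjusted p 0.998, edgeR). Sele did not overlap there, with 22, 24 and 30 reads in trained libraries labelled shH2afy, against 48, 62 and 71 reads in untrained ones, a ratio of 0.42 (exact 95% counting interval 0.317 to 0.552). Its log2 fold change of -1.20 ± 0.24 was not called (adjusted p 0.971, edgeR). Selp had a ratio of 0.58 (0.469 to 0.715) by counting error alone, but its mice overlapped.

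Icam1 and Vcam1 overlapped between trained and untrained mice in both viruses. Their log2 fold changes were -0.19 ± 0.17 and -0.04 ± 0.13 in libraries labelled shH2afy, and 0.49 ± 0.39 and 0.26 ± 0.22 in shScr libraries, where without trained replicate 2 that of Vcam1 was -0.02. For the 4 remaining vessel genes, Pecam1, Cdh5, Flt1 and Plvap, log2 fold changes lay between -0.06 and -0.01 in libraries labelled shH2afy and between -0.18 and 0.10 in shScr libraries.

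By edgeR 0 of 10 members tested in libraries labelled shH2afy and 0 of 8 tested in shScr libraries were called, where 0% of all genes were called in either. At an unadjusted p under 0.05 stood 613 of 15866 genes (3.86%) and 1382 of 15424 genes (8.96%), with 3 members (Cldn5, Kdr and Sele) and 2 members (Cldn5 and Kdr) among them. Groups lay apart, with every trained mouse lower, for 2 members in each virus, against 5% and 6.82% of all genes. The interaction of training and virus, which asks whether training acted differently in the 2 viruses, called 0 of 10 members and 0% of 15997 genes (333 genes, 2.08%, at an unadjusted p under 0.05, edgeR, and 0 members by DESeq2). For Kdr the interaction was -0.01 ± 0.15, for Icam1 -0.70 ± 0.46 and for Vcam1 -0.32 ± 0.28.

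**Figure D4:**
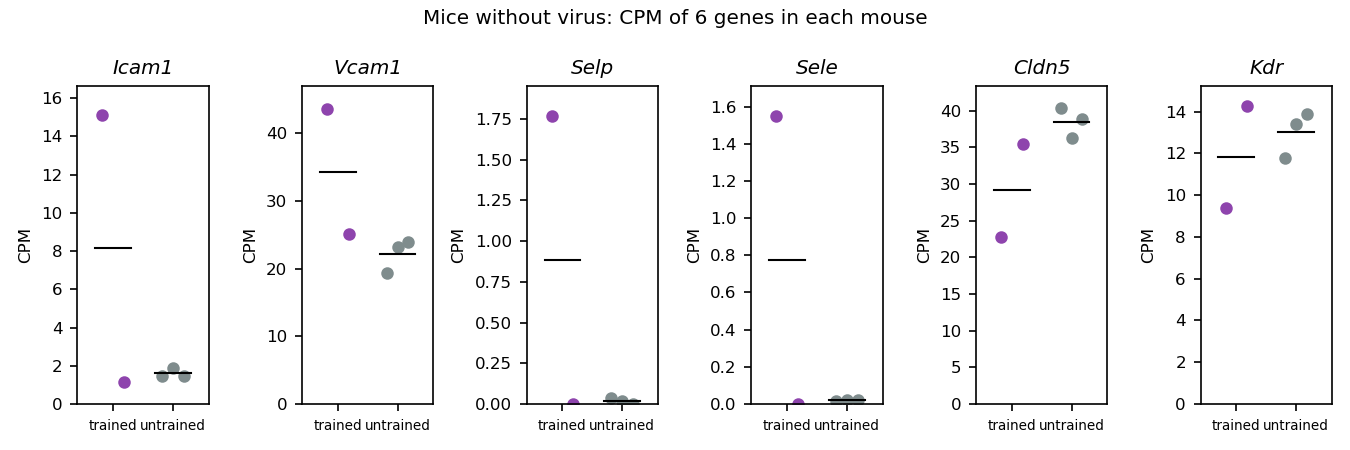
Levels in CPM (y axis, each panel with its own scale from 0) of 6 of the genes in mice without virus, with the 2 trained mice on the left and the 3 untrained mice on the right, each point a mouse and each line the group mean. Trained replicate 1 alone holds the high values of Icam1 (15.15 CPM), Selp (1.77 CPM) and Sele (1.55 CPM).

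In intact mice, trained replicate 1 stood apart from the other 4 mice in the adhesion genes, so the fold changes are given with and without it. Icam1 measured 15.15 and 1.16 CPM in trained mice, against 1.49, 1.90 and 1.44 CPM in untrained mice. Selp measured 97 and 0 reads in trained mice, against 2, 1 and 0 reads in untrained mice, and Sele 85 and 0 reads, against 1, 1 and 1. Vcam1 measured 43.5 and 25.1 CPM in trained mice, against 19.4, 23.1 and 24.0 CPM in untrained mice. Thus 1 of 2 trained mice carried the whole difference in Icam1 and the selectins, and trained replicate 2 lay at or below the untrained mice for these 3 genes.

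Cldn5 and Kdr ran the other way in that mouse. Cldn5 measured 22.7 and 35.5 CPM in trained mice, against 40.4, 36.3 and 38.8 CPM in untrained mice, and Kdr 9.38 and 14.3 CPM, against 11.8, 13.4 and 13.9 CPM. Trained replicate 1 was the lowest of the 5 mice for both, and for Cdh5 (11.0 CPM). Plvap measured 6.17 and 6.64 CPM in trained mice, against 9.24, 7.10 and 8.63 CPM in untrained mice, so both trained mice lay lower. The 5 choroid plexus genes, none at 0 in any mouse, moved with Plvap, with sums of 195 to 318 CPM in trained mice, against 364 to 408 CPM in untrained mice (median log2 fold change -0.66, 0 called), and their part in the result was not tested. Flt1 and Pecam1 in that mouse lay at 44.8 and 16.5 CPM, within the range of the other 4 mice. The list of 24 other endothelial genes did not run lower. Its sums were 497 to 521 CPM in trained mice, against 448 to 481 CPM in untrained mice (median log2 fold change 0.087, 0 called).

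The log2 fold change of Icam1 was 2.35 with all mice (adjusted p 0.196, edgeR) and -0.47 without trained replicate 1, that of Vcam1 0.63 and 0.18, that of Cldn5 -0.41 and -0.12, that of Kdr -0.14 and 0.13, and that of Cdh5 -0.01 and 0.11. For Plvap it was -0.38 and -0.33, for Flt1 0.15 and 0.27, and for Pecam1 -0.05 and -0.06. Without that mouse 0 members and 1 gene in all were called. Of the 8 members tested 0 were called, where 0.0959% of all 15641 genes were called (15 genes) and 3120 genes (19.9%) had an unadjusted p under 0.05. DESeq2 also called 0 members, among 464 genes. The groups lay apart for 1 member with trained mice higher (Vcam1) and for 2 with trained mice lower (Cldn5 and Plvap), against 20.3% and 19.5% of all genes, and Selp and Sele did not pass the filter.

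Other genes, chosen after their values were seen, set the same mouse apart. Of 11289 genes at 5 CPM or more in it, 3 exceeded 4 times the highest of the other 4 mice, Icam1, the acute-phase gene Lcn2 (10.1 CPM, mean of the others 0.883 CPM) and Tmem252 (7.50 and 0.655 CPM). Il1r1, the receptor of interleukin 1, measured 11.25 CPM against a mean of 2.91 CPM, and Nfkbia, the NF-kB inhibitor that NF-kB itself induces, 34.9 against 16.4 CPM. The dentate granule cell genes Prox1 (37.2 against 14.9 CPM) and C1ql2 (59.2 against 20.35 CPM) were higher as well. Leukocytes from blood summed to 5.31 and 2.49 CPM in trained mice, against 2.94, 4.15 and 2.57 CPM in untrained mice (Cd3e at 0 in both trained mice), and microglia to 297 and 291 CPM, against 253, 314 and 287 CPM. The part of these cells in the values of that mouse was not tested.

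Ratios to Cdh5 within a library, which no scaling of libraries can alter, set the counts of a gene against those of an endothelial junction gene. Since glia and leukocytes can also make ICAM-1 and VCAM-1, these ratios are not levels per endothelial cell. In log2 units, Icam1 over Cdh5 averaged 1.64 ± 0.60 in shH2afy, 0.04 ± 0.50 in shH2afy2 and -2.77 ± 1.17 in shScr mice of the depletion experiment (SD, n = 3 each). Vcam1 over Cdh5 averaged 3.42 ± 0.50 in shH2afy, 2.56 ± 0.26 in shH2afy2 and 1.42 ± 0.26 in shScr mice. For both ratios the 3 groups did not overlap. Plvap over Cdh5 averaged 0.17 ± 0.37 in shH2afy, 0.0006 ± 0.39 in shH2afy2 and -0.23 ± 0.10 in shScr mice, and these groups overlapped. In the training experiment Plvap over Cdh5 averaged -1.08 ± 0.21 in trained and -1.07 ± 0.20 in untrained libraries labelled shH2afy, against -0.64 ± 0.0068 in trained and -0.90 ± 0.25 in untrained shScr libraries (SD, n = 3 each). The trained groups did not overlap, with the libraries labelled shH2afy lower, and the untrained groups did overlap.

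In the training experiment, Icam1 over Cdh5 averaged 0.75 ± 0.15 in trained and 0.91 ± 0.23 in untrained libraries labelled shH2afy, against -0.92 ± 0.92 and -1.42 ± 0.37 in trained and untrained shScr libraries (SD, n = 3 each). Vcam1 over Cdh5 averaged 1.96 ± 0.05 and 1.97 ± 0.18 in trained and untrained libraries labelled shH2afy, against 1.07 ± 0.53 and 0.69 ± 0.34 in shScr libraries. Flt1 over Cdh5 ran the other way, at 2.81 ± 0.11 and 2.85 ± 0.08 in libraries labelled shH2afy, against 3.40 ± 0.04 and 3.24 ± 0.20 in shScr libraries, where the groups did not overlap. Kdr over Cdh5 was lower in trained mice of both viruses, at -0.46 ± 0.15 against -0.03 ± 0.16 in libraries labelled shH2afy and at -0.15 ± 0.05 against 0.14 ± 0.06 in shScr libraries.

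Across the 9 libraries of the depletion experiment the adhesion genes followed each other. Pearson's r of log2 CPM was 0.96 for Icam1 with Vcam1, 0.95 for Selp with Sele and 0.92 for Icam1 with Sele, whereas that of Flt1 with Icam1 was -0.15 and with Vcam1 -0.03. Over the 12 libraries of the training experiment Flt1 had an r of 0.50 with Icam1 and 0.47 with Vcam1, so its low values were seen in the depletion experiment and not in both. Among the vessel genes, Pecam1 had r of 0.88 with Cdh5 and 0.89 with Plvap. These libraries share their groups and depths, so the values describe the pattern over viruses and mice.

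The genes of at least 5 CPM most like each member over these 9 libraries were named by the same measure, with r over the 12 training libraries beside it. For Vcam1 they were Ly9 (0.997 and 0.995), a lymphocyte receptor, Nod1 (0.996 and 0.989), a sensor of bacterial cell wall, and Ctss (0.994 and 0.995), a lysosomal protease of microglia and macrophages. For Icam1 they were Pdcd6ip (0.989 and 0.940), Gfpt2 (0.987 and 0.921) and Tyk2 (0.987 and 0.943), a kinase of cytokine receptors. Sele was most like Csf1 (0.992 and 0.865), the growth factor of macrophages, Stat3 (0.990 and 0.8545) and Trim25 (0.990 and 0.882), and Selp most like Vcan (0.985 and 0.811), Pdlim5 (0.979 and 0.888) and Hbegf (0.979 and 0.922).

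The vessel genes were treated in the same way. Cldn5 was most like Pcdhga7 (0.932, no value over the training libraries), Ly6c1 (0.926 and 0.288), an endothelial surface protein, and Sun2 (0.916 and 0.878), and Flt1 most like Zfp867 (0.881 and 0.229), Adgrf5 (0.8715 and 0.801) and Cgnl1 (0.871 and 0.716). Kdr was most like Fam102b (0.965 and 0.651), Hmgn2 (0.963 and 0.218) and Sncaip (0.9515 and 0.2101), and Cdh5 most like Tns2 (0.985 and 0.769), Casp2 (0.974 and 0.565) and Zfp366 (0.974 and 0.6295). Pecam1 was most like Ldlrad3 (0.960 and 0.795), Tmc6 (0.956 and 0.916) and Itpr3 (0.941 and 0.924), and Plvap most like Blvrb (0.990 and 0.672), Fam189a2 (0.9865 and 0.693) and Ppfibp2 (0.983 and 0.579).

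**Figure D5:**
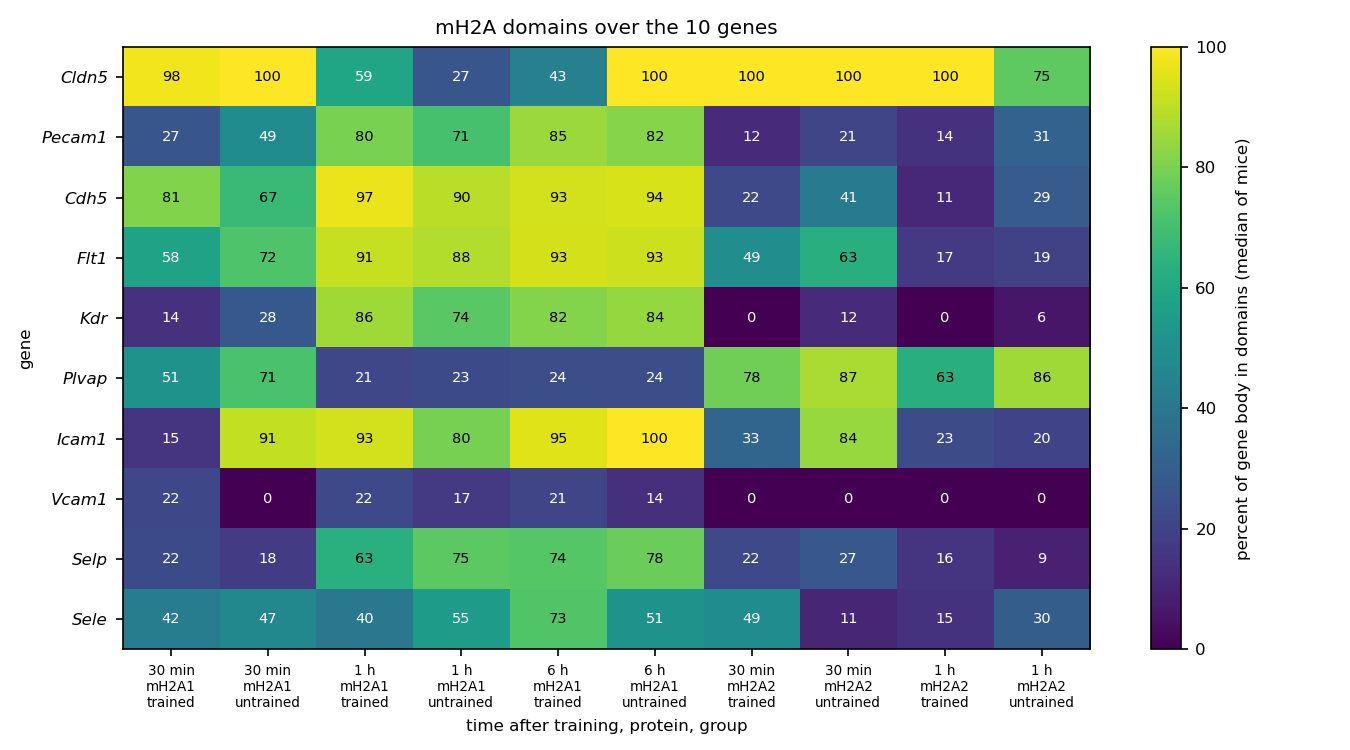
Percent of each gene body covered by domains (colour and number, 0 to 100) for the 10 genes (rows), as the median over the 2 to 5 mice of each ChIP group (columns), with trained left of untrained for each time and protein. Vcam1 stays at or below 22.2% in every group, while Cdh5 and Flt1 lie between 88.3% and 97.2% in the mH2A1 groups at 1 h and 6 h.

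Domains of mH2A were then laid over the same genes in the 30 lists from CA1 of mice without virus. They are given as a description with no test. The mH2A1 antibody of the paper at 30 min differed from that at 1 h and 6 h. Time and antibody therefore cannot be told apart for mH2A1. Its lists covered 325 to 416 Mb at 30 min and 566 to 646 Mb at 1 h and 6 h. The label of the untrained mH2A1 libraries at 1 h names mH2A1 in the title and mH2A2 as the antibody, so those values carry this doubt. Over all 21938 protein-coding genes, the median share of a gene body inside domains was between 0% and 13.2% in any list, and 16.2% to 44.2% of genes had a domain within 1 kb of the start (median 30.9%).

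Most vessel genes were covered more than that. Cldn5, a short gene at chr16:18776847-18778262, was covered over its whole body in the median list (range 0% to 100%), and a domain touched its start in 30 of 30 lists. Cdh5 (chr8:104101625-104144511) had a median of 81.8% (6.94% to 97.2%) with its start touched in 26 lists, and Flt1 (chr5:147561604-147726011) 76.1% (16.9% to 94.8%) with 19 lists. Pecam1 (chr11:106654217-106750628) had a median of 52.5% (0% to 87.9%) but its start was touched in only 4 of 30 lists. Kdr (chr5:75932827-75978458) had a median of 44.5% (0% to 93.4%) with 17 lists, and Plvap (chr8:71497765-71511752) 36.2% (2.52% to 100%) with 30 lists. These medians pool both proteins, which differed at some genes. The medians of the groups of mice ran from 67.3% to 97.2% in mH2A1 lists and from 11.2% to 41.2% in mH2A2 lists for Cdh5, and from 14.3% to 85.7% and from 0% to 12.0% for Kdr. Plvap at 1 h had the other order, with 21.1% in trained and 22.5% in untrained mice for mH2A1, and 62.8% and 85.7% for mH2A2. The mH2A1 ranges span both antibodies. For Kdr the mH2A1 medians were 14.3% in trained and 27.7% in untrained mice at 30 min, against 74.5% to 85.7% at 1 h and 6 h.

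The adhesion genes differed among themselves. Icam1 (chr9:21015985-21028817) had a median of 86.0% (0% to 100%) with its start touched in 21 lists. Vcam1 (chr3:116109949-116129688) had a median of 0% (0% to 36.9%), lay outside any domain in 16 of 30 lists and had its start touched in 12. The selectin genes, neighbours on chromosome 1, lay between, with 42.8% for Selp (chr1:164115264-164150026, 0% to 83.3%, 18 lists) and 50.8% for Sele (chr1:164048234-164057677, 0% to 78.0%, 13 lists). Icam1 and Vcam1 thus stood far apart in their median coverage over all lists, which pools both proteins. In trained mice at 30 min their mH2A1 medians were 14.9% and 21.8%. The lists come from bulk CA1, and which cells carried the domains was not tested.

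Trained and untrained mice are given for the group with most mice, mH2A1 at 6 h (5 mice each), as median body coverage. For Cdh5 it was 93.0% in trained and 93.9% in untrained mice, for Flt1 93.4% and 92.6%, for Pecam1 84.8% and 81.7%, for Kdr 81.5% and 84.3%, and for Plvap 24.0% in both. For Icam1 it was 95.2% in trained and 99.9% in untrained mice, for Selp 73.5% and 77.6%, for Sele 72.8% and 50.8%, and for Vcam1 21.0% and 13.6%. Cldn5 was the exception in size, with 43.4% in trained and 100% in untrained mice.

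At 30 min after training, Icam1 had 29.7% and 0% of its body inside mH2A1 domains in trained mice, against 32.9%, 90.6% and 100% in untrained mice, and 56.2% and 9.34% inside mH2A2 domains, against 51.6%, 84.4% and 93.8%. For mH2A1 both trained mice lay below all untrained mice, and for mH2A2 the groups overlapped. The mean coverage over all genes lay apart in the same way for mH2A1, with 15.15% and 15.9% in trained mice, against 20.8%, 27.8% and 23.0% in untrained mice, so the lower values were not particular to Icam1. Vcam1 had 19.3% and 24.3% of its body inside mH2A1 domains in trained mice and 0% in all 3 untrained mice, and 0% inside mH2A2 domains in every library of that protein.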

How the data were processed

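The deposited gene tables of the RNA experiments hold raw counts, for which the authors trimmed reads, used STAR to align to mm10, and used featureCounts to count, over whole transcripts with introns in the training experiment after ribosomal depletion. The ChIP-seq lists hold broad domains of single libraries, called over input from Bowtie2 alignments, where the methods name epic2 and the submitters' processing notes name SICER, DiffBind 2.10.0 and DESeq2 1.22.2. The deposited log2 value of a domain is the log2 of ChIP over input, and its deposited p-value column is the FDR of the caller. Only the positions of domains entered coverage, with no further threshold.

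The main test used edgeR 4.0.16 with limma 3.58.1 (R 4.3.3), and DESeq2 1.42.0 served as an alternative. Coverage and figures came from pandas 2.3.3, NumPy 2.4.6 and matplotlib 3.10.9 (Python 3.11.15). Genes under a count of 10 or a total of 15 were removed by filterByExpr, libraries were scaled by TMM, and genes were tested by the quasi-likelihood test with Benjamini-Hochberg adjustment over all genes tested. The thresholds were those of the study, an adjusted p under 0.01 with fold above 2 (depletion), under 0.05 with fold above 1.2 (training) and under 0.01 (intact mice), and 0.05 for the interaction. Each fit held the groups compared, and the interaction all 12 libraries. SE is the absolute log2 fold change over the root of the F statistic. Selectin ratios are of summed counts over summed library totals without TMM factors, with exact 95% intervals that cover counting error only. Ratios to Cdh5 had 0.5 added to counts, and correlations used log2 CPM with an offset of 0.5. The code was tested on simulated data.

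Same-numbered mice deviated together in every pair (correlation of deviations from the group means over genes) for trained against untrained shScr mice only. These values were 0.17, 0.19 and 0.25, and the replicate block changed no call there. Elsewhere signs were mixed or negative. The values were -0.15, 0.51 and 0.30 for trained against untrained mice labelled shH2afy, and -0.21, 0.53 and 0.45 for shH2afy against shH2afy2 mice. Nothing else says that numbers pair mice, and p-values measure the spread between mice. Alternatives were DESeq2, its size factors, no filter, the replicate block, all libraries of an experiment in the fit, and leaving out each library.

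All 10 genes were named in every comparison, with H2afy and H2afy2 as targets, up to 3 genes of each list by smallest adjusted p, and the 3 genes most like each member. The members and lists were chosen with earlier results of these data known. Cell markers were written out as lists of other endothelial genes, tight junction genes, VEGF and angiopoietin genes, leukocyte ligands, other adhesion and transmigration genes of vessels, NF-kB genes, leukocytes from blood, platelets, mural cells, fibroblasts, choroid plexus, red blood cells, microglia, astrocytes and CA1 pyramidal neurons.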

Additional observations from a re-analysis of the deposited data

Results flagged for a closer look

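The share of the Cldn5 gene body inside mH2A1 domains at 6 h was 43.4% in untrained replicate 4, while the other 4 untrained mice of the group stood at 100%. It was picked out because its distance from the nearest mouse made up the whole range of the group. With normally spread values, chance alone picks out about 1 in 20 groups, and 20 groups of 5 mice were looked at, of which this was the only one. Coverage cannot exceed 100%, where the other 4 mice stood, so any lower value would have been picked out and that rate does not hold here. Trained mice at 6 h ranged from 29.3% to 100% for the same gene.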

How the results depend on the processing

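Of 402 member log2 fold changes under other settings (leaving out libraries aside), 381 kept direction and side of the threshold, 15 newly passed it, 4 no longer did and 2 turned, namely Flt1 in shH2afy against shScr mice in the fit of all libraries (-0.033) and Cdh5 in intact mice with the replicate block (0.0016). The cause was not tested. Members called in shH2afy against shScr mice (depletion) were 2 with the replicate block, where Selp and Sele had an adjusted p of 0.018 (edgeR), of 1146 genes called against 1885. In shH2afy2 against shScr mice 1 member (Icam1) was called by DESeq2 and 1 without the filter, of 127 and 327 genes against 0. In shH2afy against shH2afy2 mice 3 were called by DESeq2, 4 without the filter (of 2610 genes against 1557), 3 with the block and 4 in the fit of all libraries. In trained against untrained mice DESeq2 called 1 member, Kdr, in shScr libraries (of 211 genes, and the fit of all libraries called 6) and in libraries labelled shH2afy (of 37 genes). In intact mice 464 genes were called by DESeq2, 51 without the filter and 0 with the block, against 15. With the block Kdr (adjusted p 0.0536, edgeR) and Sele (0.0567) lost their calls in trained mice, and the fit of all libraries called Plvap in untrained mice (0.0468). Nothing says that the numbers pair mice in these comparisons, and the block changed no other call of a member.

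Leaving out 1 library gave 2 to 5 members called in shH2afy against shScr mice (depletion), 0 to 0 in shH2afy2 against shScr, 0 to 3 in shH2afy against shH2afy2, 7 to 9 in untrained and 6 to 7 in trained libraries labelled shH2afy against shScr, and 0 to 0 in each comparison of training, the interaction and intact mice. The genes called in all ranged over 947 to 2364 (2 members without shH2afy 1 or 2 or any shScr mouse), 0 to 2, 2 to 2090 (2 without shH2afy 1, 631 without shH2afy 2, 167 without shH2afy2 1, 70 without shH2afy2 3), 5838 to 7294, 4719 to 6775, 0 to 1 (training, shScr), 0 to 0 (labelled shH2afy and interaction) and 1 to 416 in intact mice (1 without trained 1, 2 without trained 2 or untrained 3, 416 without untrained 2). Kdr lost its call in untrained mice at an adjusted p of 0.0738 to 0.115 (edgeR), and Plvap gained one (0.0163) without untrained replicate 3 labelled shH2afy.

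Log2 fold changes that turned without 1 library ranged, in shH2afy against shScr mice, over -0.11 to 0.14 (Flt1). In shH2afy2 against shScr mice they ranged over -0.28 to 0.021 (Flt1), -0.20 to 0.21 (Cldn5), -0.070 to 0.37 (Pecam1), -0.24 to 0.11 (Kdr) and -0.15 to 0.18 (Plvap), and in shH2afy against shH2afy2 mice over -0.028 to 0.23 (Flt1). For training in shScr mice they ranged over -0.079 to 0.037 (Flt1) and -0.019 to 0.46 (Vcam1), and in mice labelled shH2afy over -0.084 to 0.055 (Pecam1), -0.11 to 0.0034 (Flt1), -0.083 to 0.061 (Cdh5), -0.16 to 0.044 (Vcam1) and -0.19 to 0.10 (Plvap). For the interaction they ranged over -0.023 to 0.18 (Pecam1), -0.11 to 0.017 (Flt1), -0.082 to 0.074 (Kdr), -1.13 to 3.37 (Sele) and -0.28 to 3.20 (Selp), and in intact mice over -0.13 to 0.054 (Pecam1), -0.47 to 0.13 (Kdr), -0.14 to 0.11 (Cdh5) and -0.47 to 3.24 (Icam1).

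Depth limits the selectins most, since 1 to 8 reads of a group set their levels in shScr mice. With 2 or 3 mice a group, a gene that was not called cannot be taken as alike between groups.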

Other observations

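Slc2a1, the glucose transporter of brain endothelium and the endothelial gene of the lists with the smallest adjusted p in every comparison of training, measured higher in trained mice of all 3 settings, and was named for that adjusted p. It measured 89.8, 75.5 and 90.1 CPM in trained libraries labelled shH2afy, against 59.75, 62.4 and 61.2 CPM in untrained ones, and 49.7, 50.4 and 51.95 CPM in trained shScr libraries, against 39.25, 36.7 and 39.2 CPM in untrained ones. In intact mice Slc2a1 measured 87.8 and 81.4 CPM in trained mice, against 61.8, 59.9 and 55.2 CPM in untrained mice. The groups did not overlap in any of the 3. Every trained mouse lay above every untrained mouse for 4.45% (labelled shH2afy), 8.12% (shScr) and 20.3% (intact) of all genes. Slc2a1 was called in none. Its log2 fold changes were 0.49 ± 0.09 (adjusted p 0.971, edgeR), 0.39 ± 0.05 (0.154) and 0.52 ± 0.06 (0.0245, where the threshold was 0.01). The list of 24 other endothelial genes, from which Slc2a1 was picked, did not share the rise. Its median log2 fold changes were -0.023 (labelled shH2afy), -0.10 (shScr) and 0.087 (intact), with 0 called in each.

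Cells that share the vessel wall or its surroundings were followed with lists as well. Of all genes tested, 10.5% were called higher in shH2afy than in shScr mice of the depletion experiment. Of 11 tested mural cell genes, 1 was called higher in shH2afy than in shScr mice of the depletion experiment (Anpep, log2 fold change 2.72, median of the list 0.45), and of 8 fibroblast and meningeal genes 2 were called (Col1a2, 2.28, and Col3a1, 2.94). Of 9 tested genes of other adhesion and transmigration, 1 was called, F11r. Of 2 tested platelet genes, 5 choroid plexus genes and 5 red blood cell genes, 0 were called, with medians of 0.49, -0.52 and -0.62. Of 6 astrocyte genes 2 were called (Aqp4, 1.89, and Gfap, 3.20). In untrained mice of the training experiment 5 of 12 mural genes and 5 of 8 fibroblast genes were called higher in libraries labelled shH2afy (medians 0.35 and 0.89). In trained mice 5 of 12 and 5 of 8 were also called higher. Of all genes, 25.2% were called higher in untrained and 22.8% in trained mice.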
